A study of Mus musculus with 6 samples.

Results

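The ABC transporter genes, named by symbol in subfamilies A to G (Abca, Abcb, Abcc, Abcd, Abce, Abcf and Abcg), were followed in haematopoietic stem cells (HSC) with and without a mutation of Lig4. Members were all genes that a probe set of the array names alone and whose symbol starts with Abc, a subfamily letter from a to g and a number, which gave 45 of 18193 genes and 92 of 34945 probe sets. Cells were sorted as CD150+ CD48- KSL cells from bone marrow of mice 6 to 8 weeks of age, and both genotypes came from intercrosses of Lig4mut/+ parents. The 3 control arrays hold HSC of Lig4+/+ littermates (WT) and the 3 others hold HSC of Lig4mut littermates, with no treatment named for either. Lig4 encodes DNA ligase IV, which joins broken DNA ends. The design text calls the 3 arrays of a genotype biological replicates and names a NuGEN amplification of the RNA, whereas the labelling protocol names the standard Affymetrix procedure. It gives neither the nature of the Lig4mut allele nor the number of mice behind an array.

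ABC transporters are membrane proteins that use ATP to move substrates across a membrane, most often out of the cytosol. In HSC the best-known members are Abcg2 (BCRP) and Abcb1a (P-glycoprotein, with its close copy Abcb1b), which pump out the Hoechst and rhodamine dyes by which side population and dim stem cells are sorted. Others export cholesterol and phospholipids, carry fatty acids into peroxisomes, serve haem and iron metabolism in mitochondria or gate potassium channels, and the proteins of subfamilies E and F have no membrane domain and act at the ribosome.

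Promoter windows are shown for the dye pumps, the members named first by their use in stem cell sorting. The windows come from RefSeq on GRCm38.p6 and run from 250 bases before to 50 bases after a transcription start. Abcg2 has 3 of them, all on the plus strand, at chr6:58584283-58584582, chr6:58596422-58596721 and chr6:58640296-58640595, and Abcb1a has 1, on the plus strand at chr5:8566841-8567140. Capitals mark the GC box, GGGCGG on either strand.
Abcg2 start 1: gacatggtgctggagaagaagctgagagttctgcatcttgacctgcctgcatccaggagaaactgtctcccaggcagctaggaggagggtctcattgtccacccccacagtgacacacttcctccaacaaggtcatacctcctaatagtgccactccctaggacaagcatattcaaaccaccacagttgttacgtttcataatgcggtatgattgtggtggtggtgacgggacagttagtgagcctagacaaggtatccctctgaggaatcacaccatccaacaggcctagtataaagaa
Abcg2 start 2: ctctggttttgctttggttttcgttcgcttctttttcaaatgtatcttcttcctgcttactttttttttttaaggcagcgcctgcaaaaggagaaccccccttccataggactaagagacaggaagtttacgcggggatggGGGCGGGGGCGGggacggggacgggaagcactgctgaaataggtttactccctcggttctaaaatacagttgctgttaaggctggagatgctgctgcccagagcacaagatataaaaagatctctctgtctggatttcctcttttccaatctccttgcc
Abcg2 start 3: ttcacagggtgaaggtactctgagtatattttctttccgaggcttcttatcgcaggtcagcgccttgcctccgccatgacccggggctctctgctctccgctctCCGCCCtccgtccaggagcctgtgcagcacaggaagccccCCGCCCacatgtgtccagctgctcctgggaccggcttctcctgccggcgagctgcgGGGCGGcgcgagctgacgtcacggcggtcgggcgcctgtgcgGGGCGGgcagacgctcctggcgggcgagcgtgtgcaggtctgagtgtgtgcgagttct
Abcb1a: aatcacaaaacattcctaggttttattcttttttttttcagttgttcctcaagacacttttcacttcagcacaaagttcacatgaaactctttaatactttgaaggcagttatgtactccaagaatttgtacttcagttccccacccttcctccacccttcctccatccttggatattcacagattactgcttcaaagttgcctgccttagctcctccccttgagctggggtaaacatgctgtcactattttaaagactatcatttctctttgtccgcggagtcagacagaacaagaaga

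The 3 starts of Abcg2 held 0, 2 and 4 matches to the GC box, with 50%, 48% and 67% G and C, while the Abcb1a window held 0 matches, with 40.3% G and C. A match to the TATA box (TATAAA on either strand, with no letters shared with the GC box) was found 1 time in each of the first 2 Abcg2 windows. Both matches lay in the 50 bases after the start, not before it. Of all 32851 promoter windows of this length, 35.7% held the GC box and 13.6% the TATA box. Among members, 35 had a window, and 21 of their 42 windows (50%) held the GC box. The array reads 1 probe set for Abcg2 and does not separate the 3 starts.

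Arrays and the sort were checked first. Deposited medians were 6.29 to 6.34 in WT and 5.97 to 6.05 in Lig4mut (log2), and the lowest value was exactly 3 on every array, a floor at which a value is only a bound. Lig4 itself read 7.53, 6.66 and 7.63 in WT (always in the order of replicates 1, 2 and 3) against 4.97, 3.16 and 3.10 in Lig4mut, lower in each Lig4mut array. Kit, the stem cell factor receptor of the KSL gate, ran from 10.70 to 10.95 on WT arrays and from 9.56 to 10.35 on Lig4mut arrays, without overlap. Slamf1, which encodes CD150, overlapped, with 9.17 to 10.17 against 8.89 to 10.71. Cd48, whose protein the sort excludes, and Flt3 were lower on average, at -0.72 and -0.75, with overlapping groups. Of other cells, the mean log2 level of 11 macrophage and dendritic cell markers was 6.47 to 6.92 in WT and 7.29 to 7.99 in Lig4mut. That of 7 B cell markers was 6.51 to 6.65 and 6.87 to 7.65, also without overlap. Gene and marker levels here are quantile normalized, and marker means are not given for other scalings. With this scaling the median difference of all genes was 0.18, against 0.020 in the values as deposited. Means overlapped for T and NK cell markers (5.36 to 6.11 and 5.77 to 7.25) and megakaryocyte markers (7.72 to 8.14 and 8.02 to 8.57). Erythroid, endothelial and mast cell and basophil means overlapped too. Granulocyte markers, 9 in number, had a mean level of 10.81 in Lig4mut replicate 2 against 6.46 to 9.18 on the other 5 arrays. No measured marker of these lists was at the floor on all arrays. In bulk samples fewer cells of a type and less RNA per cell cannot be told apart.

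No ABC transporter gene passed the threshold over all genes. At an adjusted p under 0.05 (limma, Benjamini-Hochberg over 18193 genes) 2 genes passed, 0.0110% of those tested, and 0 of 45 members were among them. At an unadjusted p under 0.05 by limma, 4 members (8.89%) had higher values in Lig4mut against 15.5% of all genes, and 2 (4.44%) had lower values against 4.18% of all genes. With the values as deposited, the same shares of all genes were 6.73% and 5.42%, beside 3 and 2 members. Of all genes at that level 78.8% were higher in Lig4mut, against 55.4% as deposited, 87.7% with median centring and 66.6% with cyclic loess. The 3 Lig4mut arrays lay above the 3 WT arrays for 6 members (13.3%) against 21.0% of all genes, and below them for 5 members (11.1%) against 5.65% of all genes. The higher ones were Abcd2, Abcb9, Abcc3, Abcc8, Abcc2 and Abca12, and the lower ones Abca5, Abca3, Abcg3, Abcf1 and Abca8a. Abca8a was at the floor on 1 Lig4mut array. The 2 members at the floor on all arrays could not separate and are counted in these shares. With dim genes left out, 3 of 28 members were higher at the unadjusted level against 8.91% of all genes.

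The family did not move as a block. The median difference of members was 0.038 (Lig4mut minus WT, log2), beside 0.18 for all genes, and 19 members lay above and 26 below the median of all genes. The 26 include the 5 members that touched the floor. Of these, 2 (Abca13 and Abca16) were at the floor on all arrays, so their difference of 0 fell below that median whatever their true level. The family count and median are therefore limited by the floor. With dim genes left out 17 of 28 members lay above it. Differences ran from -1.22 for Abca1 to 1.79 for Abcd2. Within a genotype the median SD of a member was 0.326 in WT and 0.418 in Lig4mut, beside 0.283 and 0.452 for all genes. The plot of differences by role shows the spread within each role.

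**Figure D1:**
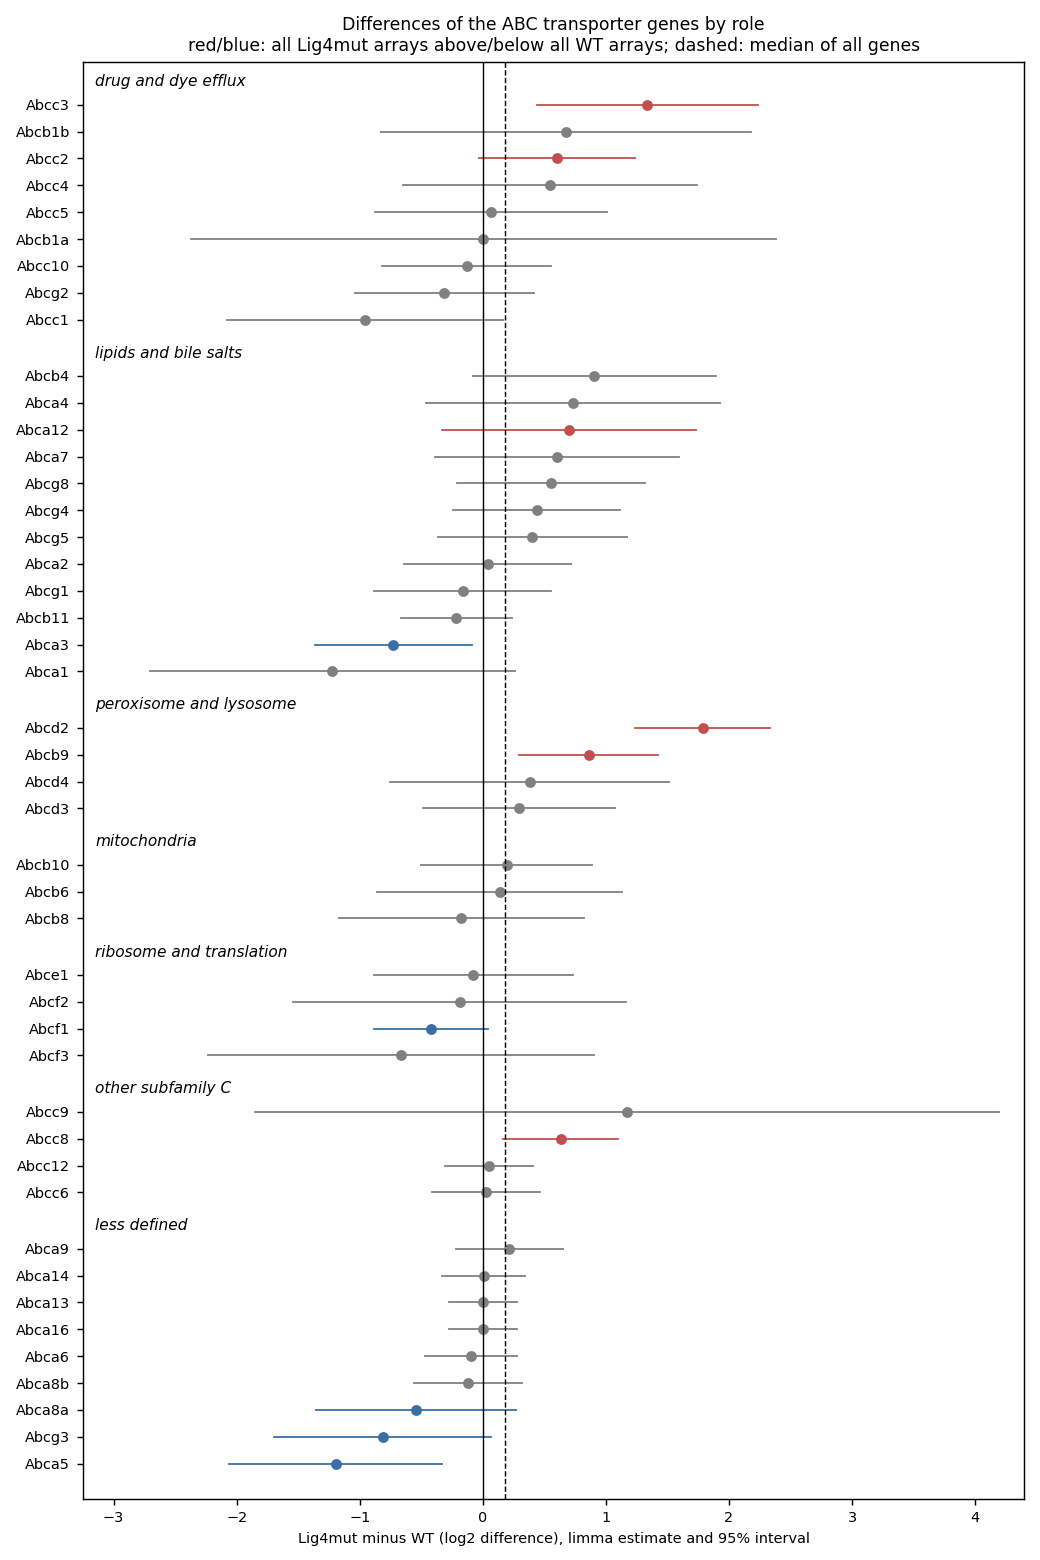
Each point is 1 of the 45 ABC transporter genes, placed by its difference between Lig4mut and WT HSC (x axis, log2) under its role, with the 95% interval from limma as a line. Red and blue points mark genes whose Lig4mut arrays all lie above or all below the WT arrays (6 and 5 genes), and the dashed line marks the median of all genes, 0.18.

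Of the dye pumps, Abcg2 differed by less than the spread between arrays. Its probe set read 10.16, 9.35 and 10.19 in WT against 9.40, 9.55 and 9.81 in Lig4mut (log2). The groups overlapped, with WT replicate 2 the lowest of the 6. The difference was -0.31 ± 0.28 (SE, n = 3 per genotype), with a 95% interval of -1.03 to 0.41 and adjusted p = 0.591 by limma, and it was 0.017 with arrays centred on their medians. Leaving out 1 array moved it to between -0.59 (without WT replicate 2, unadjusted p = 0.0365 by limma) and -0.17 (without WT replicate 3), and it was -0.18 without WT replicate 1.

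Abcb1a showed a split by array that did not follow genotype. The probe set with the higher mean read 7.50, 5.60 and 5.57 in WT and 7.87, 5.03 and 5.78 in Lig4mut. Replicate 1 of each genotype was thus high and the other 4 arrays low. The difference was 0.002 ± 0.94 (SE, n = 3 per genotype), with a 95% interval of -2.37 to 2.38, and it ran from -0.82 without Lig4mut replicate 1 to 0.64 without WT replicate 1. The other probe set, 1419758_at, was near the floor of 3 in both genotypes. It read 4.27, 3.44 and 3.95 in WT and 3.17, 3.00 and 3.00 in Lig4mut, the last 2 at the floor. Its difference of -0.83 is thus a lower bound in size (limma over probe sets, unadjusted p = 0.0176). The floor also limits the Lig4mut SD of 0.099 that enters this p. The 2 probe sets of Abcb1a thus gave different pictures, the second from dim signals only.

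Abcb1b, picked outside the naming rule as the neighbouring copy, was likewise highest in Lig4mut replicate 1 in its brighter probe set. It lay at 7.90, 7.26 and 7.35 in WT and at 9.38, 7.93 and 7.22 in Lig4mut, a difference of 0.68 ± 0.59 (SE). Without Lig4mut replicate 1 it was 0.073, and without Lig4mut replicate 3 it was 1.15. The other probe set of Abcb1b, 1446701_at, read 4.58, 4.44 and 4.04 in WT and 4.10, 4.41 and 4.08 in Lig4mut. It was highest in WT replicate 1, with a difference of -0.16. The 2 genes are close copies, and probes of one may also read the other.

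Among the other drug transporters Abcc3 was higher in every Lig4mut array. Abcc3 (MRP3), which exports organic anions and bile salts, read 6.05, 5.96 and 6.48 in WT and 8.20, 7.12 and 7.18 in Lig4mut. The lowest Lig4mut array lay above the highest WT array, and the difference was 1.34 ± 0.35 (SE), 2.52-fold (adjusted p = 0.159 by limma). Relative to the median of all genes it was 1.16. Abcc2 (MRP2), an exporter of conjugates, had lower signals that were also separated by genotype, with 3.82, 3.64 and 4.41 in WT and 4.77, 4.45 and 4.46 in Lig4mut. The gap between the groups was small beside the range within WT, and the difference was 0.60 ± 0.25 (SE; adjusted p = 0.274 by limma).

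Abcc1 (MRP1), a glutathione-conjugate exporter, leaned the other way and is named after its values were seen. It lay at 10.30, 10.23 and 9.46 in WT and at 9.57, 8.24 and 9.31 in Lig4mut, where replicate 2 was the lowest and replicate 1 lay within the WT range. The difference was -0.96 ± 0.44 (SE), and it was -0.56 without Lig4mut replicate 2 and -0.29 with arrays centred on their medians. In all, 6 of the 9 measured drug and dye transporters had higher and 3 lower values, beside 11174 higher and 6758 lower of all 18193 genes. In the values as deposited 5 were higher and 4 lower. With quantile normalization the median of this list was 0.067 beside 0.18 for all genes. This median was 0.54 without WT replicate 1, 0.60 without Lig4mut replicate 2 and -0.046 without Lig4mut replicate 1, so its place relative to all genes turned with the array left out. With WT replicate 2, WT replicate 3 or Lig4mut replicate 3 left out it was 0.14, 0.14 and 0.22.

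**Figure D2:**
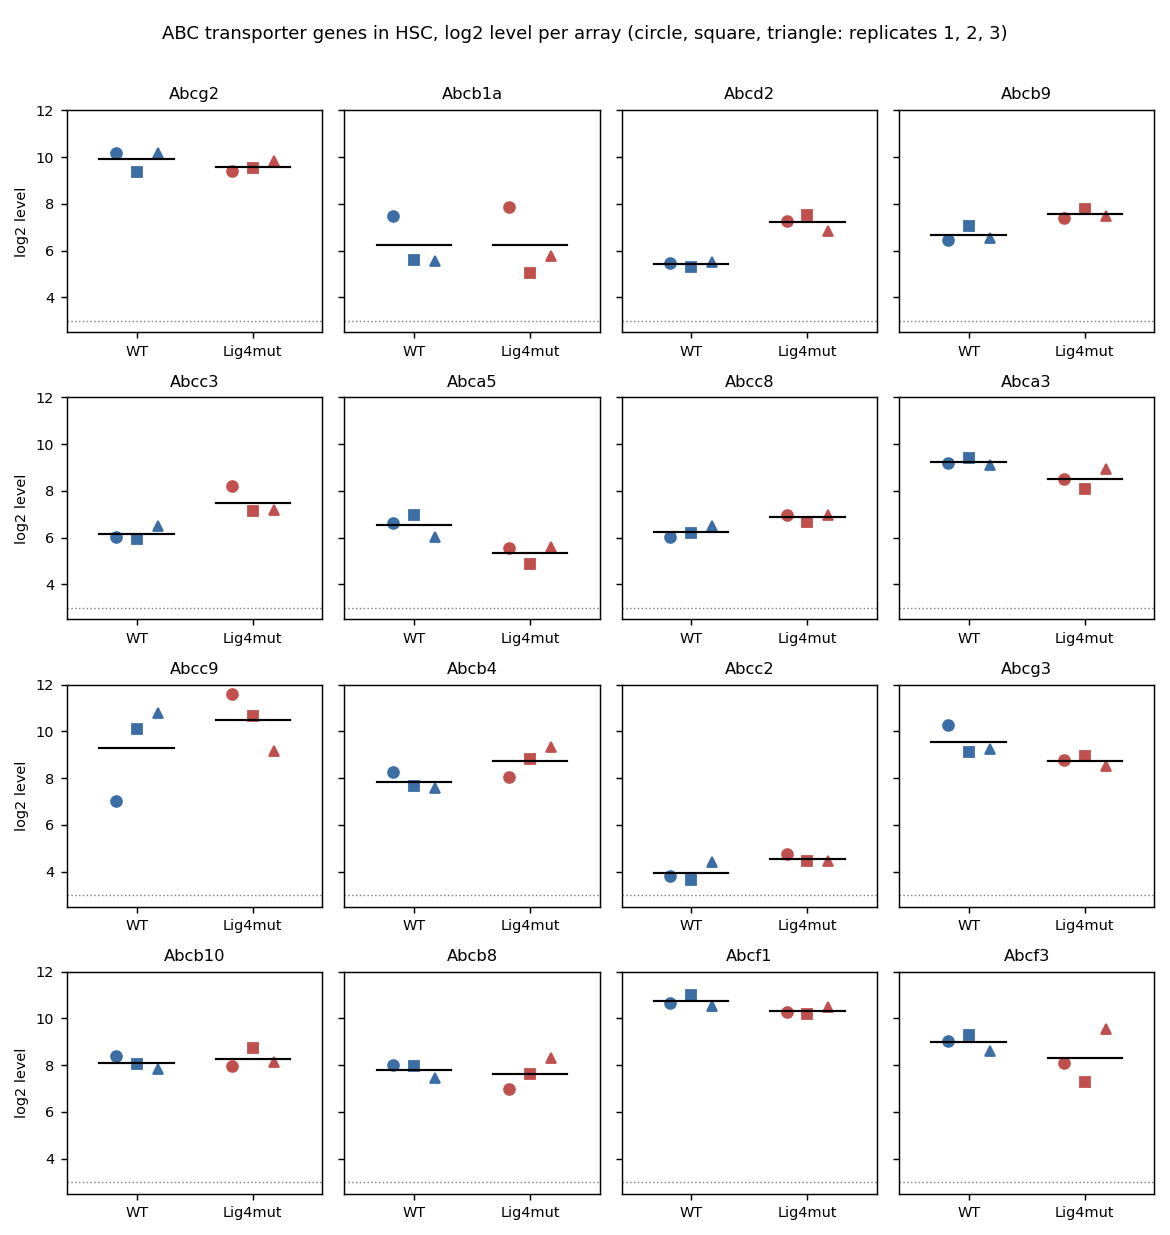
Log2 level (y axis) of the 16 named ABC transporter genes not at the floor throughout, in each of the 3 WT arrays (blue) and 3 Lig4mut arrays (red), with circles, squares and triangles for replicates 1, 2 and 3. Bars are group means and the dotted line is the floor of 3. Abcd2, Abcb9, Abcc3, Abcc8 and Abcc2 have all red points above all blue points, and Abcb1a is high in replicate 1 of both genotypes.

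The clearest difference in the family was in a peroxisomal transporter. Abcd2 (ALDRP), which brings very long-chain fatty acids into peroxisomes for oxidation, read 5.47, 5.28 and 5.52 in WT and 7.28, 7.52 and 6.84 in Lig4mut. The 3 WT arrays lay close together, and each Lig4mut array was well above all of them. Lig4mut exceeded WT by 1.79 ± 0.22 (SE, n = 3 per genotype), with a 95% interval of 1.24 to 2.33. This is a 3.45-fold difference, and it was 1.61 relative to the median of all genes. By limma the unadjusted p was 0.000343 and the adjusted p 0.125, so Abcd2 did not pass over all genes.

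Other probe sets of Abcd2 added little. Of its 4 probe sets, 1438431_at and 1439835_x_at were at the floor on all 6 arrays, and 1456812_at read 3.98, 4.56 and 4.08 in WT and 4.75, 4.22 and 4.88 in Lig4mut, a difference of 0.41. As the mean of all 4 the gene was at 0.55. The difference thus rests on 1 probe set.

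Abcb9 (TAPL), a lysosomal peptide transporter, was also higher in every Lig4mut array. It lay at 6.46, 7.06 and 6.54 in WT and at 7.37, 7.78 and 7.48 in Lig4mut, with a difference of 0.86 ± 0.22 (SE), 1.81-fold (adjusted p = 0.158 by limma). Its 3 probe sets all had higher values, from 0.28 to 1.06. Of the remaining members of this list, Abcd3 (PMP70) differed by 0.30 and Abcd4, a lysosomal protein of vitamin B12 handling, by 0.38, with overlapping groups for both. All 4 peroxisomal and lysosomal members lay above the median of all genes in the quantile-normalized values, the values as deposited, with median centring and with cyclic loess. With the mean of probe sets 3 of 4 did, since 1 of the 2 probe sets of Abcd4 was lower. Without Lig4mut replicate 1 only Abcd2 and Abcb9 did, with Abcd3 at -0.029 and Abcd4 at 0.014.

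Abcd2, Abcc3 and Abcb9 shared the direction between genotypes with the macrophage and dendritic cell markers, of which 9 of 11 were higher and 6 separated the genotypes upward. The 6 were H2-Aa, H2-Ab1, Cd74, Csf1r, Marco and Siglech. Lyz2, C1qa and C1qb were higher with overlapping groups, and Adgre1 (-0.049) and Cd68 (-0.14) were lower. The 3 members shared their direction with B cell markers too, of which 7 of 7 were higher and 4 separated the genotypes upward. Of all genes, 11174 of 18193 were higher and 21.0% separated the genotypes upward. Within Lig4mut the order differed for Abcc3, which was highest in replicate 1, where the macrophage and B cell means, 7.29 and 6.87, were lowest. Abcb9 was lowest in replicate 1 and highest in replicate 2, as both means were. Abcd2 was highest in replicate 2 and lowest in replicate 3. The part of these cells in the 3 differences was not tested.

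Lipid transporters had values on both sides. Of 12 measured members, 8 were higher and 4 lower, beside 11174 higher and 6758 lower of all 18193 genes, and 7 lay above the median of all genes. Abca3, the phospholipid transporter of lamellar bodies in lung, read 9.18, 9.41 and 9.11 in WT and 8.52, 8.08 and 8.92 in Lig4mut. All Lig4mut arrays were below all WT arrays, with a difference of -0.73 ± 0.25 (SE; adjusted p = 0.215 by limma). Of its other 2 probe sets 1 was at -0.45 and 1 was at 0.046, and the mean over all 3 was -0.38.

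Abcb4 (MDR2), the phosphatidylcholine translocase of bile, leaned upward. Its values were 8.27, 7.65 and 7.58 in WT and 8.07, 8.84 and 9.33 in Lig4mut, so that Lig4mut replicate 1 lay within the WT range. The difference was 0.91 ± 0.39 (SE; adjusted p = 0.287 by limma), and 1.24 without Lig4mut replicate 1.

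The cholesterol exporters Abca1 and Abcg1, named after their values were seen, did not go as a pair. Abca1, which loads lipid onto apolipoprotein A-I, read 7.59, 9.37 and 8.97 in WT and 8.02, 7.49 and 6.75 in Lig4mut, with WT replicate 1 among the Lig4mut values. The difference was -1.22 ± 0.58 (SE), and leaving out 1 array moved it to between -1.75 (without WT replicate 1) and -0.86 (without WT replicate 2). As the mean of its 3 probe sets it was -0.62, with 1450392_at at -0.063. Abcg1, which loads HDL, read 10.46, 10.54 and 10.60 in WT and 10.66, 9.78 and 10.67 in Lig4mut. Only Lig4mut replicate 2 stood below the other 5 arrays, and the difference was -0.16 ± 0.28 (SE), turning to 0.13 without that array and to 0.17 with arrays centred on their medians. The other probe set of Abcg1, 1455221_at, read 5.88, 5.55 and 5.68 in WT and 5.56, 8.55 and 4.64 in Lig4mut. There Lig4mut replicate 2 was the highest array, and the difference was 0.55.

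Of the brain and bile members, Abcg4 is named after its values were seen, since both of its probe sets were higher. The brighter one read 6.37, 7.07 and 6.19 in WT and 7.08, 6.85 and 7.01 in Lig4mut, and 1424437_s_at read 5.87, 5.87 and 5.85 against 6.55, 7.29 and 6.56. The second probe set separated the groups, with a difference of 0.94 (limma over probe sets, unadjusted p = 0.0106), whereas the first did not, with 0.44. The difference of the first was 0.26 without WT replicate 3, 0.70 without WT replicate 2 and 0.14 in the values as deposited. Abcg5 and Abcg8, the partners in the sterol exporter of liver and gut, differed by 0.40 and 0.55, with overlapping groups. In the values as deposited both differed by 0.24. These genes lie head to head on chromosome 17, and their promoter windows share 209 bases.

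Mitochondrial members differed by less than their spread. Abcb10, a transporter of erythroid haem synthesis, read 8.39, 8.06 and 7.82 in WT and 7.97, 8.74 and 8.14 in Lig4mut. Abcb8, linked to mitochondrial iron export, read 8.02, 7.95 and 7.44 and 6.96, 7.61 and 8.31. Differences were 0.19 ± 0.27 and -0.17 ± 0.39 (SE), and Abcb6, a porphyrin transporter, was at 0.14. A further probe set of Abcb10, 1454265_a_at, was separated, with 5.51, 5.68 and 5.49 in WT and 6.61, 6.38 and 6.11 in Lig4mut (limma over probe sets, unadjusted p = 0.00478). The third probe set of this gene overlapped between genotypes, at -0.042. Erythroid markers, 7 in number, had a mean level of 5.55 to 5.92 in WT and 5.68 to 5.71 in Lig4mut.

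The 4 ABC proteins of the ribosome all had lower values in Lig4mut, between -0.67 and -0.076, beside 6758 lower of all 18193 genes. With all 6 arrays, all 4 lay below the median of all genes in each of the 4 scalings, but 2 of 4 were above 0 with arrays centred on their medians and 1 of 4 with cyclic loess. Without Lig4mut replicate 1, Abce1 (0.20) and Abcf2 (0.20) were higher and lay above the median of all genes. With WT replicate 2 left out they were at 0.013 and 0.15, and with WT replicate 3 left out Abce1 was at 0.025. Abcf1, a partner of initiation factor eIF2, read 10.65, 11.00 and 10.52 in WT and 10.26, 10.19 and 10.47 in Lig4mut. The highest Lig4mut array was just under the lowest WT array, with a difference of -0.42 ± 0.18 (SE; adjusted p = 0.291 by limma). Of its 6 probe sets 3 were higher and 3 lower, and their mean was 0.046.

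Abcf3, a protein linked to antiviral and growth functions, had lower values in all 3 of its probe sets. The brightest read 9.03, 9.30 and 8.61 in WT and 8.09, 7.29 and 9.56 in Lig4mut, where replicate 3 was the highest of all arrays. By contrast, 1426748_s_at read 8.69, 8.12 and 9.20 in WT and 5.25, 6.96 and 5.71 in Lig4mut, with no overlap. This probe set had the largest difference in size of the 92, at -2.69 (limma over probe sets, unadjusted p = 0.00415), and it stayed between -3.19 and -2.33 when any 1 array was left out. The third, 1452177_at, read 6.61, 7.07 and 7.44 in WT and 3.69, 4.71 and 7.34 in Lig4mut, so that replicate 3 again lay with WT. As the mean of its probe sets Abcf3 was at -1.72, beside -0.67 ± 0.62 (SE) for the brightest alone. The brightest probe set was at -0.15 without Lig4mut replicate 2 and at -1.29 without Lig4mut replicate 3.

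Abce1, which splits ribosomes for recycling, and Abcf2 overlapped between genotypes in each of their probe sets, with differences of -0.076 and -0.19 for the brightest.

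Of the channel subunits of subfamily C, Abcc8 was higher in every Lig4mut array and Abcc9 was not. Abcc8 (SUR1), the sulphonylurea receptor that pairs with the pore Kcnj11, read 6.03, 6.20 and 6.49 in WT and 6.98, 6.67 and 6.97 in Lig4mut. Its second probe set, 1457066_at, read 4.50, 4.83 and 4.42 in WT and 5.47, 5.29 and 5.53 in Lig4mut. Both probe sets separated the groups, with differences of 0.63 ± 0.18 (SE; adjusted p = 0.175 by limma) and 0.85. In the values as deposited the first was at 0.33.

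Kcnj11, the pore itself, read 7.72, 7.53 and 8.08 in WT and 8.36, 8.65 and 8.53 in Lig4mut, a difference of 0.73 ± 0.19 (SE; adjusted p = 0.158 by limma). All its Lig4mut arrays lay above all WT arrays, as for Abcc8.

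Abcc9 (SUR2), the subunit that pairs with the pore Kcnj8 in vessels, varied more between arrays than between genotypes. It read 7.03, 10.10 and 10.77 in WT and 11.61, 10.67 and 9.14 in Lig4mut. Its WT replicate 1 stood far below the other 5 arrays, and its 3 probe sets were all lowest there. The difference was 1.17 ± 1.19 (SE), and it was 0.041 without WT replicate 1, 0.61 without Lig4mut replicate 1, 1.84 without Lig4mut replicate 3 and 1.91 without WT replicate 3. The other subfamily C members of this list, Abcc6 and Abcc12, were at 0.028 and 0.050. Kcnj8 read 5.10, 8.17 and 8.47 in WT and 10.17, 9.09 and 9.45 in Lig4mut, again lowest in WT replicate 1, with a difference of 2.32 ± 0.99 (SE; adjusted p = 0.283 by limma), and of 1.25 without that array.

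Endothelial markers, 6 in number, had mean levels of 8.03, 9.20 and 9.62 in WT and 10.29, 10.48 and 9.35 in Lig4mut. This mean, too, was lowest in WT replicate 1. All 6 endothelial markers had higher values in Lig4mut, beside 11174 of 18193 genes. Of the 6 markers 2 separated the genotypes upward, beside 21.0% of all genes. None of the 6 was at the floor on all arrays, and the part of endothelial transcripts in the values of Abcc9 and Kcnj8 was not tested.

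**Figure D3:**
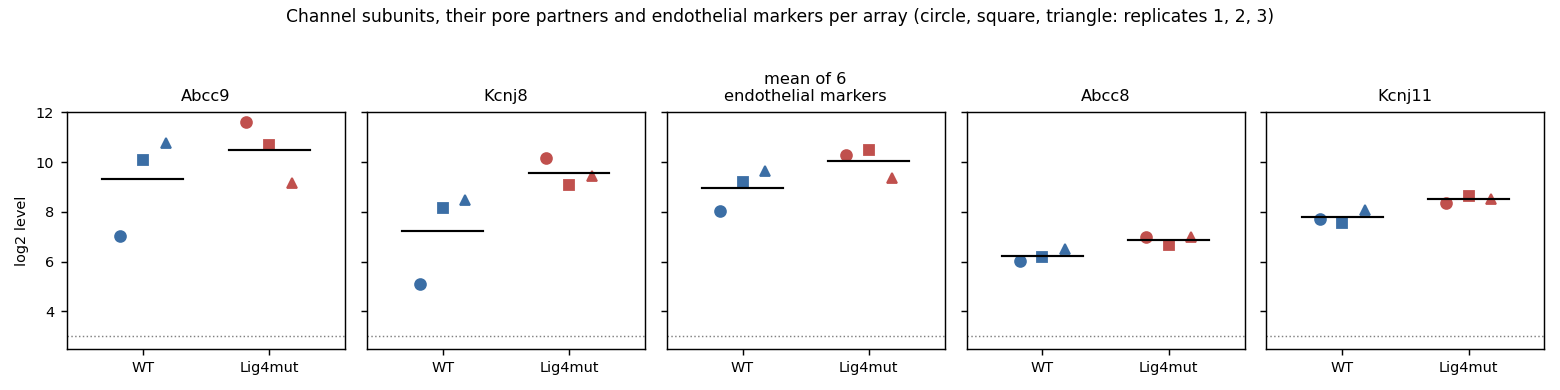
Log2 level (y axis) per array of the channel subunits Abcc9 and Abcc8, of their pore partners Kcnj8 and Kcnj11 and of the mean of 6 endothelial markers, in WT (blue) and Lig4mut (red), with circles, squares and triangles for replicates 1, 2 and 3, bars for group means and a dotted line at the floor of 3. WT replicate 1 is the lowest array for Abcc9 (7.03), Kcnj8 (5.10) and the endothelial mean (8.03), and all red points lie above all blue points for Kcnj8, Abcc8 and Kcnj11.

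Of the 9 members with less defined substrates, 5 touched the floor (Abca13, Abca16, Abca14, Abca6 and Abca8a), and no count against the median of all genes is given for them. Abca5, a lysosomal member of the Abca cluster, read 6.61, 6.98 and 6.02 in WT and 5.57, 4.86 and 5.59 in Lig4mut. The groups did not overlap, with a difference of -1.19 ± 0.34 (SE), 2.29-fold (adjusted p = 0.173 by limma). Its other probe set, 1459391_at, read 3.51, 6.19 and 6.34 in WT and 3.00, 3.00 and 3.97 in Lig4mut, the first 2 of these at the floor, and was lower on average, though WT replicate 1 fell among the Lig4mut values. Abca5 lies on chromosome 11 in a run of neighbours with Abca6, Abca9, Abca8a and Abca8b, whose differences were -0.097, 0.21, -0.54 and -0.12. Abca6 and Abca8a were each at the floor on 1 Lig4mut array.

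Abcg3, a rodent gene related to Abcg2, read 10.25, 9.13 and 9.25 in WT and 8.76, 8.94 and 8.49 in Lig4mut, just separated, with a difference of -0.81 ± 0.35 (SE; adjusted p = 0.283 by limma). Without WT replicate 1, the highest array, it was -0.46. Its second probe set, 1421168_at, read 9.49, 9.59 and 9.64 in WT and 5.82, 10.38 and 8.84 in Lig4mut. Both were lower on average, but in the second Lig4mut replicate 2 was the highest array of all. Abca13 and Abca16 were at the floor on every array in all of their probe sets, 2 and 1, so that neither has a difference.

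The lower values of Abca5, Abca3, Abcg3 and Abcf1 shared their direction with some HSC markers. Of 10 measured HSC markers 6 were lower and 4 higher, with a median of -0.47, beside 6758 lower and 11174 higher of all 18193 genes. The 3 HSC markers that separated the genotypes were Kit, Meis1 (-1.65) and Hlf (-1.44), all lower in Lig4mut, beside 5.65% of all genes separated downward. The mean of the list overlapped, at 9.97 to 10.25 in WT and 9.43 to 10.07 in Lig4mut. The part of a different cell makeup in the values of these 4 members was not tested.

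Agreement between probe sets limits what can be said of single members. Of 26 members with more than 1 probe set, 16 had all in 1 direction (or at 0), 9 had probe sets on both sides of 0 and 1 was at the floor throughout. Over the 92 probe sets, 9 were higher at an unadjusted p under 0.05 by limma (9.78%, against 12.2% of all probe sets) and 4 lower (4.35%, against 5.30%), and 0 passed the adjusted threshold. Abcc5, with 10 probe sets, had 5 on each side, from -0.53 to 1.31. The upper end, 1430882_at, read 5.13, 5.00 and 5.08 in WT and 6.76, 5.93 and 6.44 in Lig4mut, whereas the brightest, which stands for the gene, was at 0.067.

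**Figure D4:**
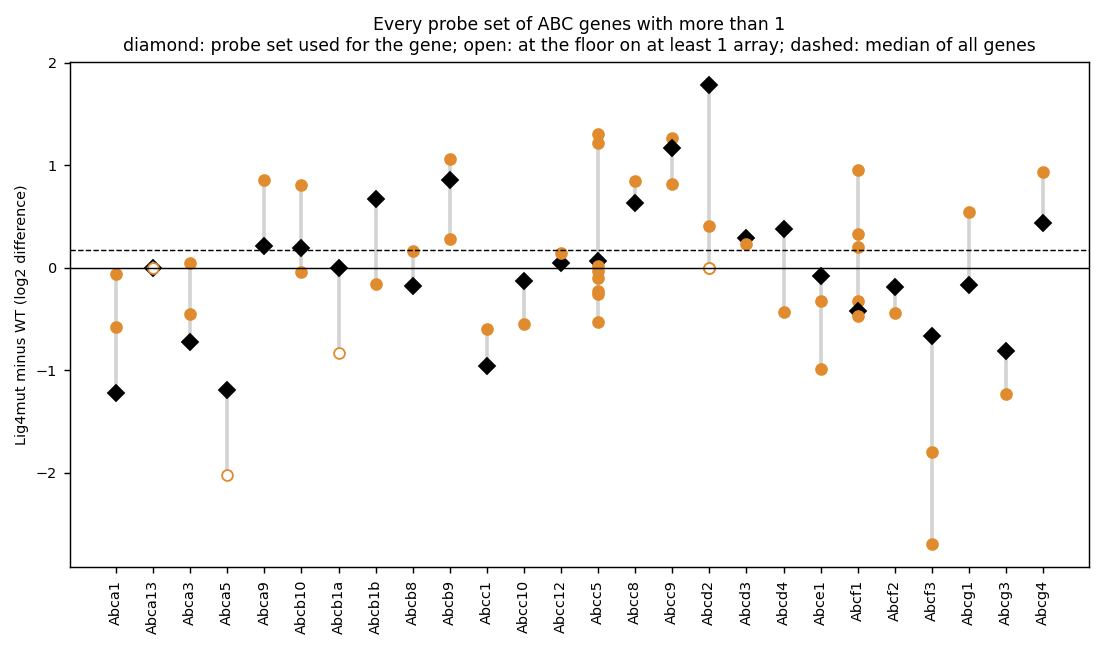
Difference between Lig4mut and WT HSC (y axis, log2) for every probe set of the 26 ABC transporter genes (x axis) that have more than 1, with diamonds for the probe set that stands for the gene and open symbols for probe sets at the floor on at least 1 array. The solid line is 0 and the dashed line the median of all genes, 0.18. Probe sets of Abcf3, Abca5 and Abcc1 all lie below 0, those of Abcc9, Abcb9 and Abcc8 all above it, and those of Abcc5 and Abcf1 on both sides.

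Partners and regulators of the transporters were followed through a list of 35 genes, of which 30 were measured. At an unadjusted p under 0.05 by limma 5 of 30 (16.7%) were higher and 0 lower, beside 15.5% and 4.18% of all genes, and 0 passed the adjusted threshold. Apoa1, the apolipoprotein that accepts lipid from Abca1, read 6.54, 6.60 and 6.71 in WT and 7.71, 8.42 and 9.38 in Lig4mut, a difference of 1.89 ± 0.44 (SE). Abca1 itself leaned the other way. Nr1h3, the oxysterol receptor LXR-alpha that drives Abca1 and Abcg1, differed by 0.87 ± 0.25 (SE) and Nr1i2, the xenobiotic receptor PXR that drives Abcb1a, by 0.85 ± 0.26 (SE). Tap1, an ABC transporter under another name that feeds peptides to MHC class I, ran from 9.80 to 10.14 in WT and from 10.38 to 11.17 in Lig4mut. Its difference of 0.68 ± 0.26 (SE) was 0.40 as the mean of its 4 probe sets and 0.43 without Lig4mut replicate 3.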

How the data were processed

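RNA of HSC from WT and Lig4mut littermates, 3 arrays each, was read on 1-colour Affymetrix arrays. The deposited values are log2 expression. RMA is the tool that the submitters' processing notes name, without a version, and the labels do not explain the floor of 3. Of 45101 probe sets, 64 were controls, 34945 others named 1 gene in GEO's platform annotation, 932 named several and 9160 had no entry, and 34741 symbols were updated through NCBI's mouse gene table (GRCm38.p6).

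Because the deposited medians differed, the log2 values were quantile normalized across arrays. Each gene was represented by its probe set with the highest mean. All 18193 genes, and separately all 34945 probe sets, went through lmFit and eBayes of limma 3.58.1 under R 4.3.3 (two-sided, Benjamini-Hochberg over all of them, threshold 0.05), which was tested on simulated data. Differences are Lig4mut minus WT. The number of arrays limits the precision. An exact permutation test of 3 against 3 arrays cannot give a p below 0.1, so none was run.

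The members and lists were chosen with earlier results of these data known. Named by rule were Abcg2 and Abcb1a, members at an unadjusted p under 0.05, the 2 with the smallest p in each role list, members at the floor throughout 1 genotype, and the 5 partners with the smallest p. As alternatives, 1 array at a time was dropped and the replicate number was blocked, and the others were other scalings, dim genes left out, the mean of probe sets, every probe set, a variance trend, array weights and a threshold of 0.1.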

Additional observations from a re-analysis of the deposited data

How the results depend on the processing

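No member passed the adjusted threshold under any of the alternatives run. Of the 6 members at an unadjusted p under 0.05, Abcd2, Abcb9 and Abcc3 kept it in 14 of 14 alternatives, Abca5 in 11 of 13, Abcc8 in 6 of 14 and Abca3 in 3 of 14. All 6 kept their direction. With the replicate number as a block 4 members were higher and 0 lower at that level, and 0 genes of 18193 passed, with 2868 at an unadjusted p under 0.05 by limma. Same-numbered arrays did not deviate together (r = 0.04, 0.01 and -0.03), so the numbers were not taken as pairs.

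Genes past the threshold were 0 without any 1 array, with dim genes left out or with the mean of probe sets (1449 to 4096 genes at an unadjusted p under 0.05), 1 over every probe set and 4 with a variance trend. Over every probe set, 9 probe sets of members were higher and 4 lower at the unadjusted level. Lower members numbered 1 with median centring, cyclic loess or a variance trend, 0 with dim genes left out, and 1 to 3 without any 1 array. The members' median relative to all genes, -0.14, was 0.14 with dim genes left out, over 28 members.

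Some differences turned sign. Abcb1a was at -0.26 in the values as deposited, -0.16 with cyclic loess, -0.42 as the mean of probe sets and between -0.82 and 0.64 without any 1 array. Abcg2 was at 0.0169 and Abcg1 at 0.17 with median centring, and Abcg1 at 0.19 and Abcf1 at 0.0464 as the mean of probe sets. Without any 1 array Abcg1 lay between -0.31 and 0.13, Abcb10 between -0.0373 and 0.349, Abcb8 between -0.52 and 0.16 and Abcc5 between -0.27 and 0.38. The cause was not tested.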
